A study of Homo sapiens with 6 samples.

Results

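The mRNAs of 10 enzymes that take glucose to lactate were followed in RNA recovered with the RNA-binding protein LARP1 from HCT116 cells, out of their free 40S fraction. They are GPI, ALDOA, TPI1, GAPDH, PGK1, PGAM1, ENO1, PKM, LDHA and LDHB, found by their Ensembl IDs among the 60554 gene IDs listed, and they were picked as abundant metabolic mRNAs outside the classic TOP class. HCT116 is a human colorectal carcinoma line, and the free 40S fraction is the part of a sucrose gradient with small ribosomal subunits outside assembled ribosomes; the sample descriptions name it a 40S monosome fraction. The groups were RNA pulled down by an antibody to LARP1 (LARP1 IP, n = 2), RNA recovered with normal rabbit serum IgG, which measures background (IgG IP, n = 2), and RNA of the fraction without any pull-down (Input, n = 2). No treatment or genotype differs between them, and all come from the same line. The labels call the libraries biological replicates without naming separate cultures, and p-values here measure how far these libraries differ.

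Glycolysis splits glucose in an energy-consuming upper part (GPI, ALDOA, TPI1) and gains ATP and NADH in a lower part (GAPDH to PKM), after which lactate dehydrogenase turns pyruvate into lactate and restores NAD. These enzymes are among the most abundant proteins of proliferating cells, and many carcinoma lines run the pathway at a high rate. LARP1 is known to bind the terminal oligopyrimidine (TOP) motif at the start of an mRNA, a C at the first base followed by a run of C or T in the DNA sequence, which marks the ribosomal protein mRNAs. The study asked which transcripts LARP1 holds in this fraction. The glycolytic mRNAs are an example of abundant mRNAs that code for no part of the translation machinery. They were chosen with earlier results of these data known and are described here without a comparison list.

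Total counts ran from 4135463 to 8069554 per library. The 2 genes with the most counts held 21.3% to 26.6% of the LARP1 IP libraries, 70.9% to 71.5% of the IgG IP libraries and 87.9% to 88.6% of the Input libraries. Input therefore had the fewest counts left for all other genes, 752862 and 778680. Each of the 10 mRNAs had at least 65 counts in every library and all 10 passed the filter on low counts, which left 10788 genes. Levels are given as counts scaled to library size with TMM factors (CPM), without correction for gene length, so they are compared between libraries and not between genes.

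RefSeq start sites of 5 of these mRNAs are printed because LARP1's known ligand lies at the start of the mRNA. They are the 3 with the highest log2 fold changes over IgG and the 2 with the lowest. Each line gives 10 bases before the annotated start and the first 20 bases of the transcript, in GRCh38.p14, read along the strand of the gene. Capitals mark the longest run of at least 5 C or T that begins with a C within 10 bases of the start.
ALDOA, chr16:30064269-30064298, plus strand: taCTCTCCTTCTTaaaaaaaaccagggctc
LDHB, chr12:21657823-21657852, minus strand: CTCCTCCCTCCTTgcagagccggcgccgga
GAPDH, chr12:6535254-6535283, plus strand: gtgcatccctgtccggatgctgcgcctgcg
PKM, chr15:72231171-72231200, minus strand: gtggCTCCTTgcacagcagctgcacgcgcc
LDHA, chr11:18394553-18394582, plus strand: ccagctcagagtgctgcagccgctgccgcc

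All 10 mRNAs matched a RefSeq promoter by symbol. A strict motif, C at the start base followed by at least 4 C or T on the gene's strand, was in 0 of the 10 and in 4.54% of 22198 protein-coding promoters. A C followed by at least 4 C or T that began within 10 bases of the start was in 4 of the 10 (GPI, ALDOA, PKM and LDHB) and in 34.1% of those promoters. A longer run, C followed by at least 7 C or T, was in ALDOA and LDHB and in 9.69% of those promoters. GAPDH, with the largest fold change over IgG, had neither run. These counts were not among the planned results, and a link to the fold changes was not tested. In ALDOA and LDHB the run begins before the annotated start and its last 3 bases lie in the transcript. The runs of GPI and PKM end before that start. For 5 of the 10, GAPDH and PKM included, the RefSeq start used here is not the outermost start of the gene, and the start used in HCT116 cells was not measured.

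GAPDH, ALDOA and LDHB mRNAs were higher in the LARP1 IP than in both controls, by 3.9-fold to 7.84-fold over IgG and by 4.02-fold to 4.34-fold over Input. The other 7 did not pass either test. By edgeR's quasi-likelihood test with an adjusted p under 0.05 over all genes, 3 of 10 were called higher than the IgG IP, where 8.54% of all genes tested were called higher. The same 3 of 10 were called higher than Input, where 4.63% of all genes were. None of the 10 was called lower, against 2.29% of all genes for IgG and 1.52% for Input. Abundant genes were called more often: of the 1350 genes that averaged 20 CPM or more across the 6 libraries, a level all 10 reach and one set after their values were seen, 25.9% were called higher than IgG and 20.2% higher than Input. A count of 3 of 10 is near those shares. The average over the 6 libraries includes the LARP1 IP, so genes high only there can reach 20 CPM, which can raise the shares. A split on the control libraries alone was not made. Both comparisons share the LARP1 IP libraries, so they are not independent.

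**Figure D1:**
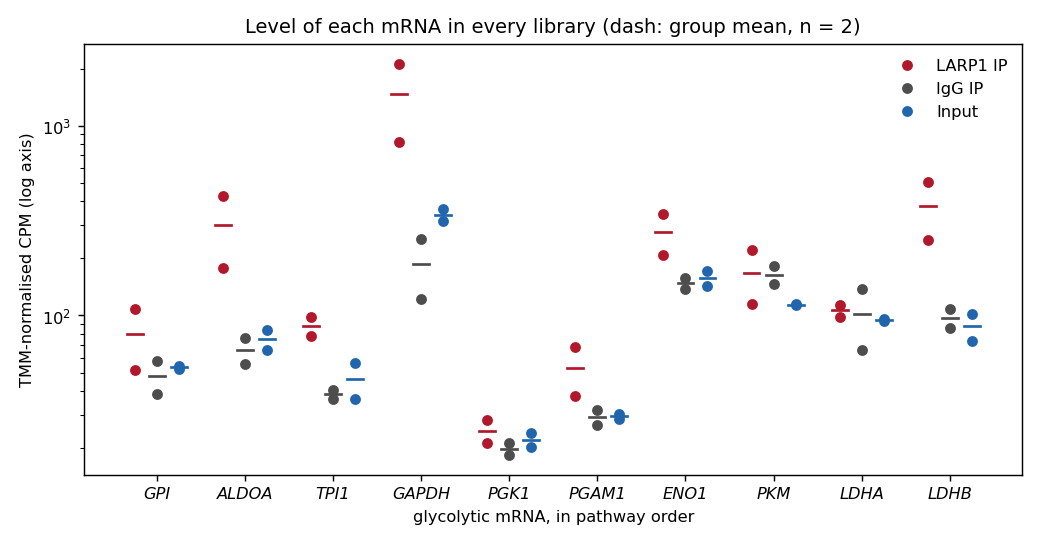
TMM-normalised CPM (log axis) of each mRNA in the 2 libraries of the LARP1 IP, the IgG IP and Input, in pathway order, with a dash at each group mean. GAPDH, ALDOA and LDHB are the mRNAs whose LARP1 IP libraries lie furthest above both controls, and the 2 LARP1 IP libraries differ from each other by 2.02-fold to 2.59-fold in these 3.

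In the upper part of the pathway, ALDOA (ENSG00000149925.16), which codes for the aldolase that cleaves fructose bisphosphate, stood at 177 and 424 CPM in the LARP1 IP, against 55.5 and 76.0 CPM in the IgG IP and 83.9 and 65.8 CPM in Input. Both LARP1 IP libraries were above every control library, and the controls overlapped each other. The log2 fold change was 2.19 ± 0.47 over IgG (SE, edgeR adjusted p = 0.00956) and 2.01 ± 0.47 over Input (edgeR adjusted p = 0.0223). GPI (ENSG00000105220.14), the isomerase that makes fructose phosphate from glucose phosphate, stood at 51.5 and 108 CPM in the LARP1 IP, 38.4 and 57.4 CPM in the IgG IP and 54.0 and 52.5 CPM in Input. Its groups overlapped in both comparisons, with a log2 fold change of 0.73 ± 0.44 over IgG (SE, edgeR adjusted p = 0.323) and 0.58 ± 0.44 over Input (edgeR adjusted p = 0.491).

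TPI1 (ENSG00000111669.14), the isomerase that interconverts the triose phosphates made by aldolase, stood at 78.4 and 98.0 CPM in the LARP1 IP, against 40.6 and 36.4 CPM in the IgG IP and 56.0 and 36.3 CPM in Input. The LARP1 IP libraries lay above all 4 controls, without passing the threshold. The log2 fold change was 1.195 ± 0.40 over IgG (SE, edgeR adjusted p = 0.0723) and 0.93 ± 0.40 over Input (edgeR adjusted p = 0.198). It was the member nearest to the threshold without passing. Over IgG, DESeq2 called it (1.18 on the log2 scale, adjusted p = 0.0392). So did edgeR with the replicate number as a block (1.21, adjusted p = 0.0138) and edgeR with total counts (1.36, adjusted p = 0.0403). Adjusted p lay between 0.0138 and 0.956 over all 21 alternatives. The DESeq2, replicate block and total counts fits each called 4 of the 10 higher than IgG. Of all genes they called 8.26%, 14.1% and 9.31% higher, in that order.

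In the lower part, GAPDH (ENSG00000111640.14), the dehydrogenase that makes NADH and is widely used as a reference mRNA, had the largest fold change of the 10 over IgG, and over Input was level with LDHB. It stood at 821 and 2125 CPM in the LARP1 IP, against 122 and 254 CPM in the IgG IP and 314 and 366 CPM in Input. The LARP1 IP libraries were above every control, and the IgG IP libraries were both below Input. The log2 fold change was 2.97 ± 0.53 over IgG (SE, edgeR adjusted p = 0.00333), larger than for 97.2% of the genes tested, and 2.12 ± 0.52 over Input (edgeR adjusted p = 0.0276), larger than for 95.4%.

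ENO1 (ENSG00000074800.13), the enolase that forms phosphoenolpyruvate, stood at 209 and 344 CPM in the LARP1 IP, against 138 and 158 CPM in the IgG IP and 171 and 143 CPM in Input. PGAM1 (ENSG00000171314.8), the mutase before it, stood at 37.6 and 68.1 CPM in the LARP1 IP, 26.4 and 31.6 CPM in the IgG IP and 30.2 and 28.6 CPM in Input. For both mRNAs the LARP1 IP libraries were above all controls. The log2 fold changes over IgG were 0.90 ± 0.40 for ENO1 and 0.86 ± 0.41 for PGAM1 (SE, edgeR adjusted p = 0.179 and 0.211). Over Input they were 0.82 ± 0.40 and 0.84 ± 0.42 (SE, edgeR adjusted p = 0.265 and 0.267), none of which passed the threshold.

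PGK1 (ENSG00000102144.13), the kinase of the first ATP-forming step, stood at 21.2 and 28.1 CPM in the LARP1 IP, 21.2 and 18.4 CPM in the IgG IP and 24.2 and 20.2 CPM in Input. PKM (ENSG00000067225.17), pyruvate kinase of the last ATP-forming step, stood at 116 and 221 CPM in the LARP1 IP, 181 and 147 CPM in the IgG IP and 113 and 115 CPM in Input. Both IgG IP libraries of PKM fell inside the range of the LARP1 IP. The log2 fold changes over IgG were 0.32 ± 0.39 for PGK1 and 0.03 ± 0.41 for PKM (SE, edgeR adjusted p = 0.662 and 0.972), and over Input 0.15 ± 0.39 and 0.56 ± 0.42 (SE, edgeR adjusted p = 0.876 and 0.483). With library sizes set by total counts without the 2 genes with the most counts, PKM was called lower than IgG (log2 fold change -1.26, edgeR adjusted p = 0.0236), in a range of 0.0236 to 1 over its alternatives. It was the only one of the 10 called lower there, where 38.2% of all genes were.

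The 2 lactate dehydrogenase subunits differed in the LARP1 IP. LDHB (ENSG00000111716.12), the subunit typical of heart, stood at 250.3 and 505 CPM in the LARP1 IP, against 85.6 and 108 CPM in the IgG IP and 73.5 and 102 CPM in Input, all controls being below both. Its log2 fold change was 1.96 ± 0.45 over IgG (SE, edgeR adjusted p = 0.0127) and 2.105 ± 0.45 over Input (edgeR adjusted p = 0.0136). LDHA (ENSG00000134333.13), the subunit typical of skeletal muscle and of many glycolytic tumours, stood at 98.5 and 114 CPM in the LARP1 IP, 139 and 65.8 CPM in the IgG IP and 95.9 and 93.4 CPM in Input. Its LARP1 IP libraries lay between the 2 IgG IP libraries. Its log2 fold change was 0.06 ± 0.42 over IgG (SE, edgeR adjusted p = 0.951) and 0.17 ± 0.43 over Input (edgeR adjusted p = 0.871).

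**Figure D2:**
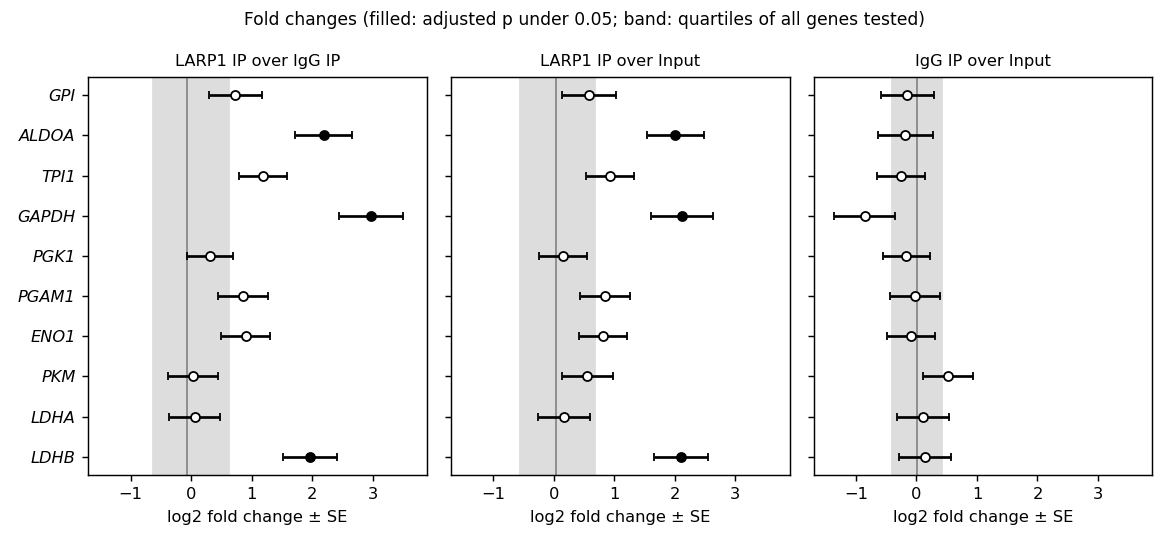
Log2 fold change ± SE of each mRNA in the 3 comparisons, with filled points at an adjusted p under 0.05, a line at the median of all 10788 genes tested and a band over their quartiles. ALDOA, GAPDH and LDHB are filled against both controls, and no mRNA is filled in the IgG IP over Input panel.

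The ratio of LDHB to LDHA counts within a library needs no scaling factor. It was 2.54 and 4.43 in the LARP1 IP libraries, against 0.617 and 1.64 for the IgG IP libraries and 0.766 and 1.09 for the Input libraries. Both LARP1 IP libraries were above every control, while the IgG IP libraries lay on either side of 1. On the log2 scale the ratio averaged 1.75 ± 0.57 over the LARP1 IP libraries, 0.01 ± 0.999 over the IgG IP libraries and -0.13 ± 0.36 over the Input libraries (SD, n = 2 each). The difference was 1.73 from the IgG IP and 1.87 from Input (exact two-sided permutation p = 0.33 each, the smallest that 2 libraries against 2 can give). It was 1.03 from the IgG IP without IgG IP replicate 1, and 2.44 without IgG IP replicate 2.

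**Figure D3:**
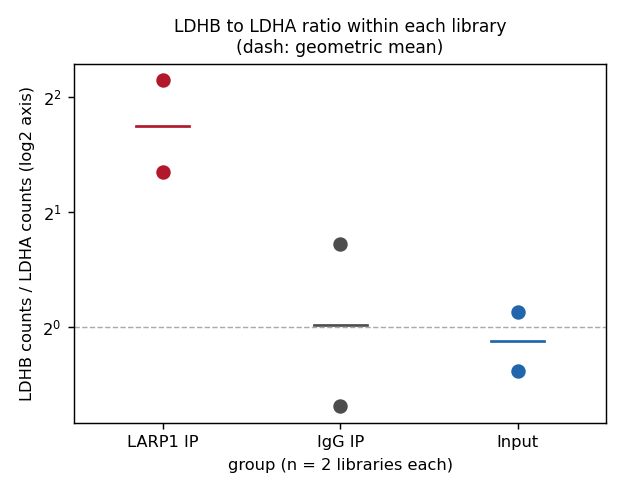
Ratio of LDHB to LDHA raw counts in each library (log2 axis), by group, with a dash at the geometric mean and a dashed line at equal counts. The LARP1 IP libraries lie at 2.54 and 4.43, and the highest control library at 1.64.

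Over the 10 mRNAs, the median log2 fold change was 0.88 over IgG, beside -0.06 over all genes tested, and 0.83 over Input, beside 0.03. Individual values ran from 0.03 (PKM) to 2.97 (GAPDH) over IgG and from 0.15 (PGK1) to 2.12 (GAPDH) over Input. All 10 values were positive with TMM in both comparisons, but the same 7 of the 10, all except GAPDH, ALDOA and LDHB, were negative over each control with total counts without the 2 genes with the most counts. PKM and LDHA were also negative over IgG with upper-quartile factors. The LARP1 IP libraries were above both IgG IP libraries for 7 of 10 mRNAs, where 27.3% of all genes tested were, with PGK1 only just so, and above both Input libraries for 8 of 10, where 28.8% of all genes were. With TMM none of the 10 lay below both libraries of a control, where 25.9% of all genes did for IgG and 22.8% for Input. As shares of the counts outside the 2 genes with the most counts, 6 of the 10 (GPI, PGK1, PGAM1, ENO1, PKM and LDHA) lay below both IgG IP libraries, where 71.3% of all genes did, and below both Input libraries, where 62.1% did. On that scale GAPDH, ALDOA and LDHB lay above both libraries of each control, where 7.06% of all genes did for IgG and 7.18% for Input. On both scales these shares are over all genes tested. They were not counted among genes of at least 20 CPM, which were called higher more often, so no excess is read from them. For genes that averaged at least 20 CPM over the 6 libraries, the LARP1 IP included, the median log2 fold change was 0.39 over IgG and 0.53 over Input.

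The sign of the smaller changes depended on how the libraries were scaled. With total counts, the median of all genes over Input moved to 1.75 and all 10 mRNAs were called higher than Input, as were 60.9% of all genes. With total counts without the 2 genes with the most counts, the median of all genes was -1.28 over IgG and -0.98 over Input. GAPDH was then the only member called higher than IgG (log2 fold change 1.69, edgeR adjusted p = 0.0129, in a range of 4.13e-10 to 0.0255 over its alternatives), where 3.04% of all genes were. Over Input 0 of 10 were called higher, where 1.73% of all genes were. A scaling shifts all genes by about the same amount, so the distance of the 10 from the median of all genes is nearly fixed by construction. It was 0.88 to 0.95 over IgG and 0.74 to 0.80 over Input across the 5 scalings.

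**Figure D4:**
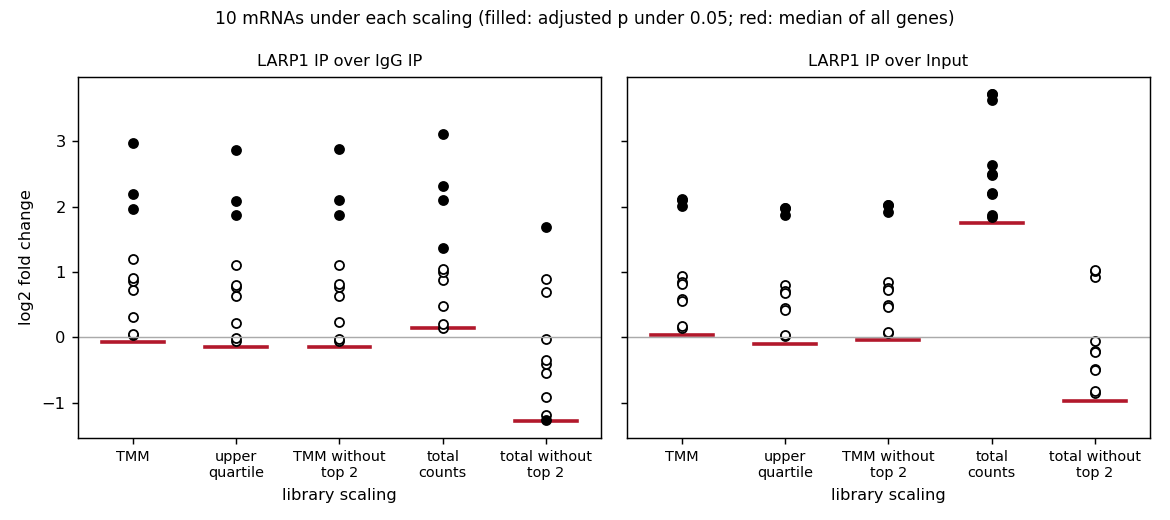
Log2 fold changes of the 10 mRNAs under 5 library scalings in edgeR, with filled points at an adjusted p under 0.05 and a red line at the median of all genes tested; "top 2" stands for the 2 genes with the most counts. Over IgG with total counts without those 2 genes, 2 points are filled: GAPDH above 0 and PKM below 0, beside the median of all genes.

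Some of the calls also rested on single libraries. In TMM-scaled CPM, LARP1 IP replicate 2 was higher than replicate 1 for 10 of 10 mRNAs, by 1.16-fold to 2.59-fold. As shares of the counts outside the 2 genes with the most counts, TPI1, PGK1 and LDHA alone were lower in replicate 2. They fell from 0.0195% to 0.0162%, from 0.00528% to 0.00464% and from 0.0246% to 0.0189%. How many of all genes were higher in replicate 2 was not counted. Without LARP1 IP replicate 2, ALDOA and LDHB over IgG lost their edgeR calls (log2 fold changes 1.44 and 1.38), while GAPDH kept its call (2.13). That fit has a single LARP1 IP library, so calls in it, by edgeR or DESeq2, are not read as support. LDHB also missed the threshold over IgG without IgG IP replicate 1 (1.804, edgeR adjusted p = 0.0567). GAPDH over IgG had a log2 fold change of 3.58 without IgG IP replicate 2. Over the alternatives, adjusted p over IgG ran from 7.35e-07 to 0.0827 for ALDOA and from 1.62e-05 to 0.139 for LDHB.

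Over Input, the edgeR calls of all 3 were lost without LARP1 IP replicate 2 (log2 fold changes 1.29 for GAPDH, 1.26 for ALDOA and 1.53 for LDHB). They were also lost without Input replicate 1 or Input replicate 2, as were all other edgeR calls over Input. Each of these fits leaves a single library in a group, so calls in them, by edgeR or DESeq2, are not read as support. The log2 fold changes in the edgeR fits that left out an Input library were 1.85 to 2.37. Over the alternatives, adjusted p over Input ran from 4.42e-06 to 0.316 for GAPDH, from 7.71e-06 to 0.345 for ALDOA and from 4.61e-06 to 0.173 for LDHB.

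As a share of the counts outside the 2 genes with the most counts, the 10 mRNAs together held 0.464% (Wilson 95% interval 0.457 to 0.471) and 0.666% (0.658 to 0.675) of the LARP1 IP libraries. They held 0.428% (0.419 to 0.437) and 0.418% (0.409 to 0.426) of the IgG IP libraries, and 0.402% (0.388 to 0.417) and 0.423% (0.409 to 0.438) of the Input libraries. The intervals cover counting error only. Both LARP1 IP libraries were above the controls, at a mean of 0.565% ± 0.143, against means of 0.423% ± 0.00726 for the IgG IP and 0.413% ± 0.0149 for Input (SD, n = 2 each, exact two-sided permutation p = 0.33 for each, the smallest possible).

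On that denominator the difference was not seen without GAPDH. The other 9 mRNAs held 0.259% and 0.315% of the LARP1 IP libraries, 0.366% and 0.306% of the IgG IP libraries, and 0.278% and 0.272% of the Input libraries, so the groups overlapped. As a share of all counts they did not overlap: the other 9 held 0.190% and 0.248% of the LARP1 IP libraries, 0.107% and 0.0873% of the IgG IP libraries, and 0.0315% and 0.0330% of the Input libraries. That denominator includes the 2 genes with the most counts, which held 26.6% and 21.3% of the LARP1 IP libraries. In the IgG IP they held 70.9% and 71.5%, and in Input 88.6% and 87.9%. All other genes together thus also had a larger share of all counts in the LARP1 IP. GAPDH made up 44.1% and 52.7% of the counts of the 10 mRNAs in the LARP1 IP, against 14.4% and 26.6% for the IgG IP and 30.9% and 35.8% for Input. PKM made up 6.21% and 5.47% in the LARP1 IP, against 21.4% and 15.4% for the IgG IP and 11.2% and 11.2% for Input. The LARP1 IP libraries were the highest for GAPDH and the lowest for PKM. These shares add up to the same total in every library, so a higher share of GAPDH leaves less for the rest. Even so, ALDOA and LDHB had higher shares in both LARP1 IP libraries (9.54% and 10.5%, 13.5% and 12.5%) than in any control, where they reached at most 8.26% and 11.4%. GPI, PGK1, PGAM1, ENO1 and LDHA, like PKM, had lower shares in both LARP1 IP libraries than in any control, and TPI1 overlapped. Within the set, 3 mRNAs thus lay above all controls, 6 below and 1 between. Such a share has no counterpart over all genes. As shares of the counts outside the 2 genes with the most counts, the same 6 lay below both IgG IP libraries, as did 71.3% of all genes. They also lay below both Input libraries, as did 62.1%. The same 3 lay above both libraries of each control, as did 7.06% of all genes for IgG and 7.18% for Input. Such shares were not counted among abundant genes alone.

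**Figure D5:**
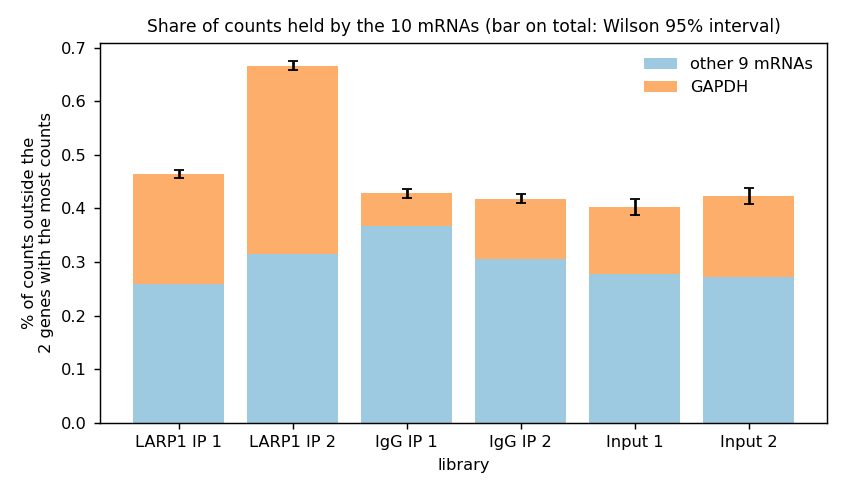
Share of counts outside the 2 genes with the most counts that is held by the 10 mRNAs in each library, split into GAPDH and the other 9, with the Wilson 95% interval of the total. The totals of the LARP1 IP, 0.464% and 0.666%, exceed those of the controls, and the part of the other 9 overlaps between the LARP1 IP and each control.

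The IgG IP was set against Input to see what control serum recovers of these mRNAs. None of the 10 was called in either direction by edgeR, and none had an unadjusted p under 0.05, where 6.72% of all genes had; DESeq2 called 0 of the 10 as well. At the adjusted threshold edgeR called 0% of all genes, and DESeq2 called 0.176% higher and 0.176% lower. The median log2 fold change of the 10 was -0.12, beside 0.01 over all genes, and the values ran from -0.85 for GAPDH to 0.53 for PKM. GAPDH was the one member with both IgG IP libraries below Input (log2 fold change -0.85 ± 0.50, SE, edgeR adjusted p = 0.785), where 19.3% of all genes were. PKM was the one member with both above (0.53 ± 0.42, SE, edgeR adjusted p = 0.854), where 19.2% of all genes were. With total counts, where the median over all genes was 1.51, 9 of the 10 were called higher than Input, as were 53.9% of all genes, and GAPDH was not.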

How the data were processed

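The authors deposited raw read counts per Ensembl gene ID, 1 file per library, with no normalization. The submitters' processing notes list TopHat2 2.1.1, Bowtie2, Subread 1.20.6, featureCounts and CASAVA 1.8, and the build GRCh38. Per the labels' protocols, libraries were stranded and made without poly(A) selection. Annotation release, strand setting and the handling of multi-mapping reads are not given in sources used here. Several of these genes, GAPDH among them, have processed pseudogenes that could share their reads. Of the 60554 IDs, 0 matched the RefSeq gene table used here (GRCh38.p14), whose Ensembl column was empty. Symbols of the 10 mRNAs came with the rule that chose them, and the planned lists of other glucose metabolism genes, TOP genes and cell type markers were not applied. The members, lists and tests were chosen with earlier results of these data known. All 10 members are named.

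Counts were fitted in edgeR 4.0.16 (R 4.3.3): filterByExpr with a minimum count of 10, TMM, and a quasi-likelihood fit of all 6 libraries with group as the only term. P-values were Benjamini-Hochberg adjusted over 10788 genes, with a threshold of 0.05. The SE is the log2 fold change divided by the square root of F. Alternatives included DESeq2 1.42.0, other scalings and filters, and leaving out each library. The fit and DESeq2 were also run on simulated counts, in which the LARP1 IP differed from the controls in chosen genes only. Those counts were not built with the difference between groups in the 2 genes with the most counts. They therefore do not test the choice of scaling. The 2 libraries of a group were not duplicates: the chi-square statistic between replicates, per degree of freedom, was 17.6 for the LARP1 IP, 18.6 for the IgG IP and 2.98 for Input.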

Additional observations from a re-analysis of the deposited data

How the results depend on the processing

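Counts are of the 10 mRNAs called higher or lower. Upper-quartile factors, TMM without the 2 genes with the most counts, both other filters, fits of 4 libraries and DESeq2 kept every count within 1.5 times (3 or 4 higher than IgG, 3 higher than Input). With total counts, 4 were higher than IgG, as were 9.31% of all genes. Under that scaling 10 were higher than Input (median log2 fold change 2.49) and 9 higher in the IgG IP than in Input (median 1.40). With total counts without the 2 genes with the most counts, 1 was higher and 1 lower than IgG (median -0.38) and 0 were higher than Input (median -0.21), with a median of 0.10 for the IgG IP over Input. PKM over IgG turned to -1.26. In the IgG IP over Input with total counts, GPI, ALDOA, TPI1, PGK1, PGAM1 and ENO1 turned to 1.34, 1.32, 1.28, 1.37, 1.49 and 1.43; these changes follow the scaling. The median of the 10 in the IgG IP over Input was -0.15 with DESeq2 and with upper-quartile factors, -0.17 with at least 50 counts in 2 libraries, and 0.033 without a filter; the cause was not tested.

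Leaving out a library left a single library in its group, so only effect sizes are given here. Not all calls over IgG or over Input held in those fits. The median ran from 0.44 to 1.23 over IgG (DESeq2 0.46 to 1.204), 0.40 to 1.12 over Input (DESeq2 0.40 to 1.07), and -0.20 to 0.019 for the IgG IP over Input (DESeq2 -0.24 to -0.0066, with -0.033 without IgG IP replicate 1). The difference in summed share, in percentage points, was 0.142 from the IgG IP and 0.153 from Input. It was 0.0412 to 0.244 and 0.0513 to 0.254 with libraries left out, 0.311 and 0.384 as a share of all counts, and -0.049 and 0.0125 without GAPDH. The log2 LDHB to LDHA difference ran from 1.03 to 2.44 from the IgG IP and 1.47 to 2.27 from Input.

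The groups share replicate numbers but the labels name no batch they share. Same-numbered libraries deviated from their group means with correlations at 0.52 (LARP1 IP and IgG IP), 0.13 (LARP1 IP and Input) and 0.27 (IgG IP and Input), which 2 libraries a group cannot settle. With the replicate block, 4 of the 10 were higher than IgG (TPI1 added), 3 higher than Input and 0 called in the IgG IP over Input, with medians of 0.85, 0.79 and -0.13. Of all 10788 genes the block called 1526 higher than IgG (921 without it), 1083 higher than Input (499 without it), and 39 higher and 35 lower in the IgG IP over Input (0 without it). Of 630 values recomputed for single mRNAs, 7 reversed with a call and 58 changed sign without one.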
